A study of Mus musculus with 6 samples.

Results

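The 10 genes described here encode the subunits of the cohesin ring and the proteins that load and release it: Smc1a, Smc3, Rad21, Stag1 and Stag2, the loader genes Nipbl and Mau2, and the release and regulator genes Wapl, Pds5a and Pds5b. They were chosen by name, 10 of the 21000 protein-coding genes that have a curated RefSeq transcription start site (TSS). All 10 were found in the annotation. Accessible chromatin at these genes was read from untreated V6.5 cells by ATAC-seq, an assay that marks open DNA by where a transposase can insert adapters. V6.5 is a mouse embryonic stem cell (mESC) line, grown here with LIF on irradiated fibroblast feeders. The paper's culture section instead lists LIF with the inhibitors CHIR99021 and PD0325901 and does not mention feeders. The exact culture of these samples is thus uncertain. The untreated group has 2 replicates, and the authors deposited 1 list of 41014 peaks for both of them. The list has no value per replicate, so neither the depth of the libraries nor the spread between them is known, and the values below are descriptions without a test over samples. The series also has mESCs with a ZBTB21 degron, collected at 0 h and at 6 h of auxin (IAA) with 2 samples for each time, which were not analysed here.

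Cohesin is a ring that holds DNA. Smc1a and Smc3 encode its paired ATPase arms, Rad21 encodes the kleisin that closes the ring, and Stag1 and Stag2 encode alternative subunits that bind the kleisin. NIPBL and MAU2 form the loader, which also drives loop extrusion, whereas WAPL together with the PDS5 proteins takes cohesin off chromatin. In mESCs, as in other dividing cells, cohesin holds sister chromatids together and folds the genome into loops that stop at CTCF sites.

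A promoter peak, which means a listed ATAC-seq peak no farther than 1 kb from a TSS, was found at 3 of the 10 genes: Stag2, Mau2 and Pds5b. Of all protein-coding genes, 28.5% had one, so that the count of the cohesin genes was near this background. The other 7 genes had none, including those of the core ring genes Smc1a, Smc3 and Rad21. Within 5 kb of a TSS the same 3 genes had a peak, whereas 39.3% of all protein-coding genes did. A further 4 genes, Smc3, Stag1, Nipbl and Wapl, had peaks in the gene span but more than 5 kb from a curated TSS, and Smc1a, Rad21 and Pds5a had no listed peak within 5 kb of a TSS or in the gene. A promoter without a listed peak is not shown to be closed. Promoters of the pluripotency genes Sox2 and Klf4 had no listed peak within 5 kb either, although both genes are known to be active in mESCs. Of the 6 pluripotency markers, 3 had a promoter peak, against the 28.5% of all protein-coding genes. These were Pou5f1, Nanog and Zfp42, with top scores of 861, 805 and 892. Esrrb had no peak within 5 kb of a TSS, and 15 farther away in its span. Of 4 fibroblast markers, 1 had a promoter peak, Thy1 (score 829). Col1a1, Col1a2 and Twist1 had none, though Col1a1 held 2 peaks in its span. Counts this small do not settle the labelled cell type. The part of feeder cells in the list was not tested.

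The sequences that the results turn on are given first, so that the accessible promoters can be set beside promoters of the same complex without a listed peak. Promoter windows run from 250 bp before to 50 bp after a TSS, 5' to 3' on the gene's strand, and come from RefSeq (GRCm38.p6, the assembly that mm10 names). The table held windows for 7 of the 10 genes, and none for Nipbl, Rad21 or Stag2. Capitals mark matches to the 12 motifs searched, on either strand. Mau2 and Pds5b had a listed peak over the window. Pds5a is the paralog of Pds5b and Smc3 a core subunit, and neither had one.

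Mau2 promoter, chr8:70042685-70042984, minus strand: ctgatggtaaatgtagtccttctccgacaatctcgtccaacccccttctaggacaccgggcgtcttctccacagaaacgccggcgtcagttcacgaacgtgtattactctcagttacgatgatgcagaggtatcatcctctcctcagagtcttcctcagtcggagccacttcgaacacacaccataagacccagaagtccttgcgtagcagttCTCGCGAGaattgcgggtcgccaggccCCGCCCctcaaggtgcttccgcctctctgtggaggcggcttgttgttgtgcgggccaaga

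Pds5b promoter, chr5:150673577-150673876, plus strand: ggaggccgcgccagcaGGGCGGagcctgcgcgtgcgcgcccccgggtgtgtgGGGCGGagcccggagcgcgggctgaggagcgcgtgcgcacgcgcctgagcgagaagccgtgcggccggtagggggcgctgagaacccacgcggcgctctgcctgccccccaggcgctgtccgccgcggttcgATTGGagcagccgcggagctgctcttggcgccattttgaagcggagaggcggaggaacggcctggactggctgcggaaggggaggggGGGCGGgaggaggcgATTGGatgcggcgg

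Pds5a promoter, chr5:65698187-65698486, minus strand: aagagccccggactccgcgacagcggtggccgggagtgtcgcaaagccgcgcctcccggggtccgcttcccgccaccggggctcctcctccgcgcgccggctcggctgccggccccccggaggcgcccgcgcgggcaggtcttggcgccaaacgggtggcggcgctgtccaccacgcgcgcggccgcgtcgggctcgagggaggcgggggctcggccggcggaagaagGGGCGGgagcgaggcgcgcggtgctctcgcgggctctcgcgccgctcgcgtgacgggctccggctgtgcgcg

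Smc3 promoter, chr19:53600146-53600445, plus strand: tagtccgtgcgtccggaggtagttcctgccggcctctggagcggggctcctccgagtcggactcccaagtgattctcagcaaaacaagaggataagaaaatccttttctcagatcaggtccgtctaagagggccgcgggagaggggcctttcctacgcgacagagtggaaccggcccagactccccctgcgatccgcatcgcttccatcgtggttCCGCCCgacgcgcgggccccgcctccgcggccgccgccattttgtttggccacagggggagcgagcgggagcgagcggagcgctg

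In the Mau2 window, the capitals are CTCGCGAG, the core of the ZBTB33 (Kaiso) motif, and CCGCCC, the reverse complement of the Sp/KLF box GGGCGG. In the Pds5b window they are 3 GGGCGG boxes and 2 matches to the NF-Y box CCAAT, read on the other strand as ATTGG. The Pds5a and Smc3 windows each held 1 Sp/KLF box, in that of Smc3 on the other strand (CCGCCC).

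The best-scored peaks of Wapl and Stag1 lie away from the promoters, and the central 300 bp of each are shown on the plus strand because they differ from the promoters in base composition.

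Wapl peak, chr14:34694029-34694328: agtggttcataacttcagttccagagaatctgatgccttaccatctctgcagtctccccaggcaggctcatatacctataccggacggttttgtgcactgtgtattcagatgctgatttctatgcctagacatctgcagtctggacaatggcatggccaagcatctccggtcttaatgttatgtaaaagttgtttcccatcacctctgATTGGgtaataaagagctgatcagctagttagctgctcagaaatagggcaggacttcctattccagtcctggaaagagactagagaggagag

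Stag1 peak, chr9:100606016-100606315: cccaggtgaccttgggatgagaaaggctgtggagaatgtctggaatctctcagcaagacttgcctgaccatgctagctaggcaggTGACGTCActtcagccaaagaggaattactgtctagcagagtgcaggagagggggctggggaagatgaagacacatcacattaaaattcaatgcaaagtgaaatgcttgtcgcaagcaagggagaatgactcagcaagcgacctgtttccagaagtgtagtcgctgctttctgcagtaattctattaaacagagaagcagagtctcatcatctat

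The Wapl window held 1 NF-Y box (ATTGG). The Stag1 window held TGACGTCA, the cyclic AMP response element (CRE), a motif found in the central 300 bp of 0.407% of the listed peaks that lie farther than 1 kb from protein-coding TSSs. A match describes the letters and not a bound site.

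Each listed peak has a score, given by the authors as whole numbers between 540 and 953 (median 696). If it is the scaled score of the IDR software, a higher score means a more reproducible peak. The smallest score, 540, is that of an IDR of 0.05, and the column was read this way from its values alone. The 3 promoter peaks of the cohesin genes differed widely in this score. Mau2, which encodes the partner of NIPBL in the loader, had the highest-scored one. Its peak at chr8:70042180-70043378 (mm10) was 1199 bp wide and had a score of 897, higher than 98.4% of the list and than 90.4% of the peaks within 1 kb of protein-coding TSSs. It covers the first TSS of Mau2 at 70042734. On the other strand, Sugp1, which encodes a splicing factor, starts 53 bp away, so that the peak belongs to both promoters and cannot be assigned to either gene. A second curated TSS of Mau2 lies inside the gene at 70029513, and the nearest peak to it is 5398 bp away.

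Stag2 is X-linked and encodes one of the alternative kleisin-binding subunits. Its promoter peak at chrX:42150090-42151000 was 911 bp wide with a score of 731. The peak covers 2 of the 4 curated TSSs of Stag2, and the other TSSs lie 415 and 678 bp from it. Among promoter peaks of protein-coding genes, 46.7% had a lower score, so that this peak was an average one. Next to it, a narrow peak of 408 bp (score 685) in intron 1 starts 1203 bp beyond a TSS, just outside the 1 kb limit.

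Pds5b, which encodes one of the PDS5 proteins, had the lowest-scored promoter peak of the 3. Its peak at chr5:150673288-150674041 covers the TSS at 150673827 and is 754 bp wide, close to the median of 757 bp of promoter peaks. Its score of 564 was near the lowest that the list holds, and only 5.14% of the promoter peaks had a lower score. It also lay below the median of the whole list, 696, unlike those of Stag2 and Mau2.

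**Figure D1:**
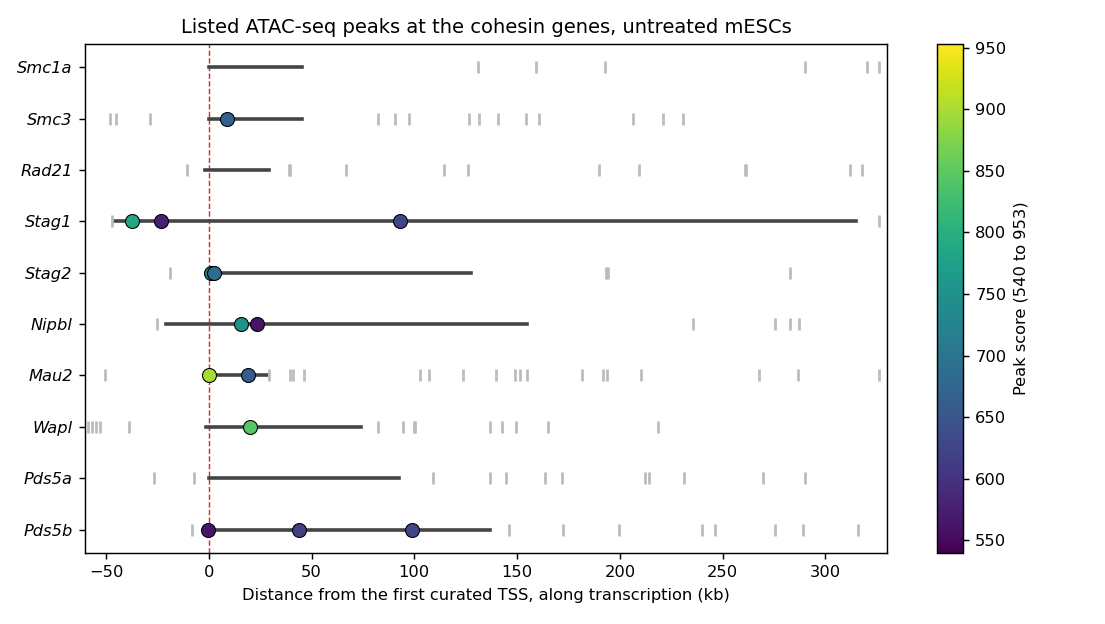
Position of the listed ATAC-seq peaks at each of the 10 cohesin genes, in kb from the first curated TSS along the direction of transcription. Dark lines are gene spans, filled circles are the 14 peaks in the span or within 5 kb of a TSS, coloured by score (540 to 953), and grey ticks are other listed peaks. Circles sit at the dashed TSS line for Stag2, Mau2 and Pds5b only, and the rows of Smc1a, Rad21 and Pds5a hold none.

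The 3 core ring genes had 1 peak between them. Smc1a on chromosome X (152016428 to 152061973) had no listed peak within 100 kb of its TSS, as had 12.9% of protein-coding genes. Its nearest peak (458 bp, score 768) lay 131 kb downstream, beyond the end of the gene, and 10.4% of protein-coding genes were as far from a peak or farther. Ribc1, a gene of cilia, starts on the other strand 133 bp from Smc1a and had no promoter peak either. Smc3 on chromosome 19 (53600396 to 53645831) had 1 peak, in intron 2 at 53608932 to 53609329, which was 8.54 kb from the TSS, 398 bp wide and had a score of 665. Rad21 on chromosome 15 (51962604 to 51993538) had none, and the nearest peak (840 bp, score 628) lay 10.3 kb upstream. Of these 3 genes, Smc1a stood far from any listed peak, while Smc3 and Rad21 lay about as far from one as the median gene (9.23 kb).

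Of the 2 X-linked genes of the complex, Stag2 had a promoter peak and Smc1a had none. On X, 24.7% of the protein-coding genes had a peak within 1 kb of a TSS, and 28.8% of those on autosomes had one.

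Stag1, the autosomal paralog of Stag2, had no peak at its curated TSS at chr9:100643448. It held 3 peaks in its span, which runs for 361 kb. Of these, 2 lie before the curated TSS, in the part of the span that only predicted transcripts cover: one 37.0 kb upstream (482 bp, score 786, higher than 81.3% of the list) and one 23.1 kb upstream (389 bp, score 576). The third was in intron 3, 92.9 kb downstream of the TSS (463 bp, score 624). With predicted transcripts included, a further peak (479 bp, score 684) lay 962 bp from the earliest start, and Stag1 then became the fourth gene with a promoter peak.

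The loader gene Nipbl had peaks only in intron 1, at 15.7 and 23.2 kb from its curated TSS. The nearer one was among the narrowest of the list (281 bp, score 750, with 4.32% of peaks narrower), and the farther one had a score of 562 and a width of 540 bp. Mau2, the other loader gene, had besides its promoter peak a peak of 535 bp with a score of 660 in an intron.

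Wapl, which encodes the release factor, had a single peak in intron 3, 19.9 kb from the TSS, at chr14:34693842-34694516. With a score of 843, it was higher than 94.1% of the list and than 96.9% of the peaks away from protein-coding promoters. It was the only one of the 11 peaks outside the members' promoters that was wider (675 bp) than the median of the list, 547 bp. A noncoding gene, 5830448L01Rik, starts 740 bp from Wapl on the other strand, with no peak within 1 kb.

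The PDS5 paralogs differed in the list. Pds5b had, beside the promoter peak, narrow peaks in intron 2 (294 bp, score 617) and intron 19 (345 bp, score 628), at 43.9 and 98.6 kb from the TSS. Pds5a had no peak in its span of 92.5 kb, and its nearest peak lay 6.82 kb upstream of the TSS (533 bp, score 675).

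In all, the 10 genes held 14 peaks in their spans, the same 14 that lie in the span or within 5 kb of a TSS. A peak in the span was listed for 7 of the 10 genes and for 51.1% of all protein-coding genes. The cohesin genes are long (28.2 to 361 kb, median 84.1 kb, against 17.7 kb for protein-coding genes). Of the protein-coding genes whose span falls in the same range, 73.2% had a peak in it, so that 7 of 10 was near this background as well. Per 100 kb of span, the cohesin genes had a median of 1.23 peaks and at most 7.09, for Mau2, against a median of 2.12 for protein-coding genes of this range. Within 100 kb of a TSS, the number of peaks ranged from 0 for Smc1a to 13 for Mau2, with a median of 4 over the cohesin genes and 5 over protein-coding genes. The neighbourhood of Mau2 was thus the densest among them, and 91.7% of protein-coding genes had as few peaks or fewer.

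The peaks at promoters were wider than those elsewhere in the genes, as are promoter peaks in the list as a whole. The 3 promoter peaks were 754, 911 and 1199 bp wide, against a median of 757 bp for promoter peaks of all protein-coding genes and 547 bp for the list. The 11 others had a median width of 408 bp (range 281 to 675 bp), below the median of 522 bp for peaks of the list farther than 1 kb from protein-coding TSSs. Their median score was 660 (range 562 to 843) against 690 for those peaks, and 3 of the 11 were above the median of the list. These were the peaks of Wapl, Stag1 and Nipbl with scores of 843, 786 and 750. Of the 11, 9 lay in introns of curated transcripts and 8 lay farther than 10 kb from a curated TSS of their gene. With predicted transcripts, the Stag1 peak with a score of 786 lay 8.22 kb from a TSS. Both counts follow largely from the choice of peaks in long genes and outside promoters. The same shares over other genes were not computed.

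**Figure D2:**
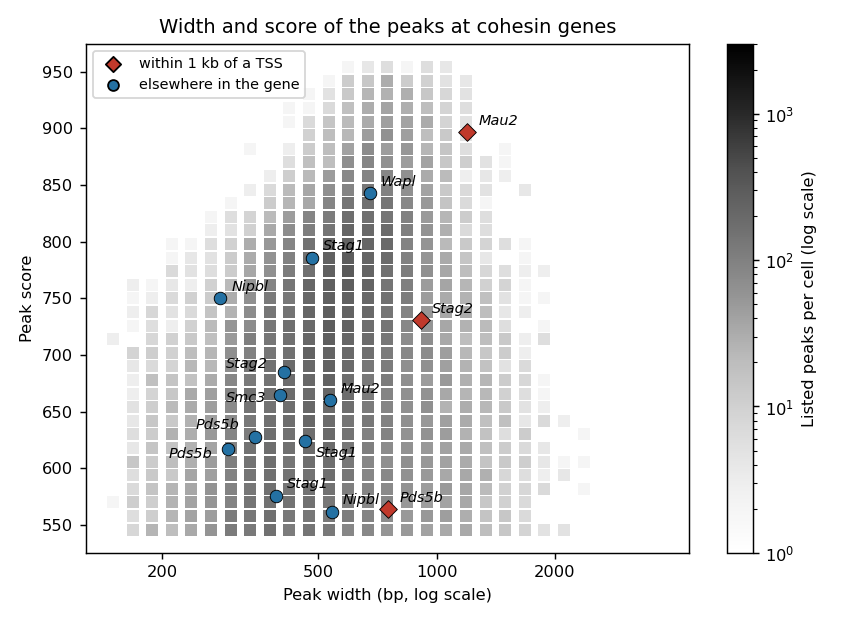
Width (bp, log axis) and score of the 14 peaks at cohesin genes, drawn over the number of listed peaks in each cell of the grey background (log scale). Diamonds are the 3 peaks within 1 kb of a TSS, which lie at 754 bp or more. Circles are the 11 others, which lie at 675 bp or less, with the peak of Wapl as the widest.

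Base composition was computed for the genes with a promoter window in the RefSeq table. In the window at the first TSS, the 7 genes had a GC content of 56 to 80.3% and a CpG observed/expected ratio of 0.903 to 1.14. This ratio was above the median of promoters with a listed peak (0.72) in 7 of 7 genes and in 38% of all promoters in the table. The units differ, since the 7 are first-TSS windows and the share counts every TSS window. The second window of Mau2, given below, was under this median. It was above this value in 33.6% of the promoters without a listed peak, whose median was 0.482, and the median of all promoters was 0.588. Of the 7, 5 had no listed peak. Pds5a had the highest GC content (80.3%) and CpG ratio (1.14) and no peak, while Mau2, with the highest-scored peak, had the lowest GC content (56%). The promoters with a peak and those without overlapped in both measures. The second TSS of Mau2 was of another kind, with a GC content of 42.7% and a CpG ratio of 0.0739.

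**Figure D3:**
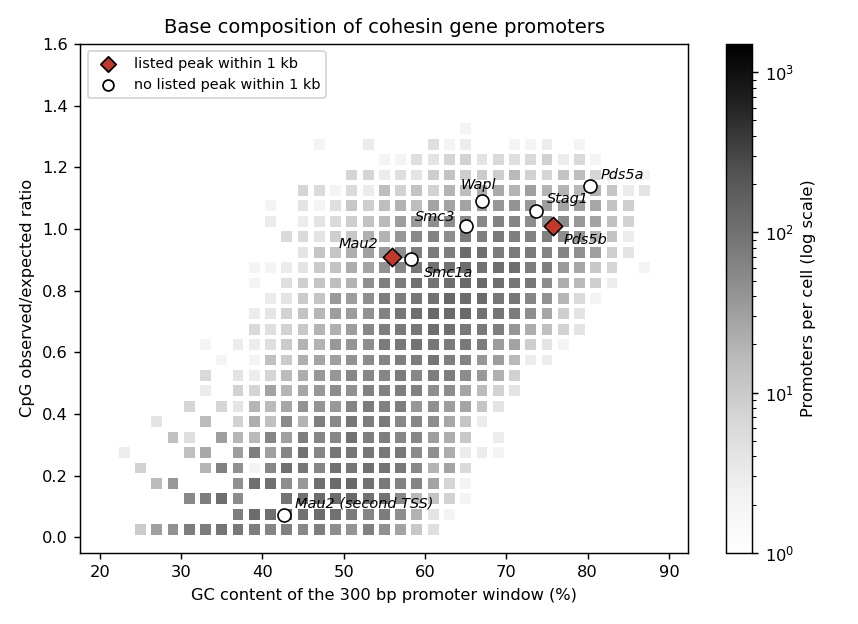
GC content (%) and CpG observed/expected ratio of the 300 bp promoter windows of 7 cohesin genes, over the number of protein-coding promoters in each cell of the grey background (log scale). Diamonds have a listed ATAC-seq peak within 1 kb and open circles have none. Both kinds lie among the CpG-rich promoters, from 0.903 upwards, except the window at the second TSS of Mau2 at 0.0739.

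The GGGCGG box of Sp/KLF factors, which bind GC-rich promoters, occurred in the first-TSS window of each of the 7 genes. It occurred in 47.6% of all 20488 protein-coding promoters in the table, where each TSS window counts. The second window of Mau2 held no GGGCGG box. For each motif, a gene was counted when any of its windows held a match. It occurred in 59.5% of the promoters with a listed peak and in 43.2% of those without. CCAAT, bound by NF-Y, occurred in 4 of the 7 (Pds5b, Smc1a, Stag1 and Wapl) and in 38.4% of all. CTCGCGAG occurred in 1, Mau2, and in 1.28% of all, and CACGTG, the E-box, in 1 (Mau2, at its second TSS) and in 8.03%. The other motifs had no match in the windows of the 7 genes: CCGGAAG for ETS factors (11.9% of all promoters), TATAAA (12.4%), GCATGCGC for NRF1 (3.64%), TGACGTCA (2.3%), AAGATGGCG for YY1 (1.9%), ATTTGCAT, the octamer of POU factors (1.61%), the CTCF consensus (0.454%) and TCAAGGTCA for ESRRB (0.337%). CTCGCGAG, TGACGTCA and CACGTG read the same on both strands, and matches of different motifs did not overlap in the sequences printed above.

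For the peaks themselves, composition was computed for 10 of the 14, leaving out those of Stag2 and Nipbl. The promoter peaks of Mau2 and Pds5b had a GC content of 63.6 and 65% and CpG ratios of 0.859 and 0.946. The central 300 bp of the Mau2 promoter peak, which reach beyond the promoter window, held AAGATGGCG for YY1 beside GGGCGG and CTCGCGAG, and these occurred in 3.02, 56.9 and 1.35% of promoter peaks. Those of the Pds5b promoter peak held GGGCGG and CCAAT, the latter found in 37.7% of promoter peaks. The other 8 had a GC content of 45.2 to 56% and CpG ratios of 0.0746 to 0.297, against medians of 51.5% and 0.224 for listed peaks away from protein-coding promoters. Of these 8, 4 held a searched motif in their central 300 bp: CCAAT in peaks of Wapl, Mau2 and Pds5b, CCGGAAG in the same peak of Mau2, and TGACGTCA in that of Stag1. CCAAT was present in 32.4% of listed peaks away from protein-coding promoters and CCGGAAG in 3.21%. The CTCF consensus, present in 4.9% of them, was in none of the 8.

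ZBTB21, the zinc finger protein that the study depletes, was compared through its list of 1827 ChIP-seq peaks in mESCs. The paper made that list with a GFP antibody in engineered mESCs that carry a degron and GFP tag on ZBTB21. The ATAC-seq list is from untreated V6.5 cells, so binding and accessibility were not measured in the same cells. None of the 14 peaks at the cohesin genes overlapped a ZBTB21 peak by at least 1 bp (0 of 10 genes). Of all protein-coding genes, 3.93% had such a peak, so that 0 of 10 was near this background. This share covers genes of all lengths and was not matched to the long spans of the cohesin genes. The ZBTB21 peak nearest to a TSS lay 92.7 kb away for Mau2, 126 kb for Rad21 and 140 kb for Smc3, and 2461 kb for Wapl. The median over the 10 genes was 287 kb, close to the 285 kb of all protein-coding genes.

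The study lists 500 ZBTB21-responsive and 500 less-responsive chromatin loops, with anchors of 25 kb. They come from Hi-C, a map of chromatin contacts, of ZBTB21-degron mESCs untreated and after 6 h of IAA. These too are not the cells of the ATAC-seq list. Both classes hold only loops longer than 500 kb, ranked by ZBTB21 signal and cohesin change at the ATAC-seq peaks inside them. Responsive loops were the top 500 with ZBTB21 peaks and cohesin peaks reduced after ZBTB21 depletion, and less-responsive loops the bottom 500 without these. ZBTB21 peaks inside responsive loops are thus no finding. No cohesin gene overlapped a loop of either class (0 of 10 for both), while 16.2% of protein-coding genes overlapped a responsive and 6.25% a less-responsive one. With only 10 genes, 0 was not far from either share. Neither share was matched to the long spans of the cohesin genes. Smc3 came closest. A responsive loop of 550 kb on chromosome 19 ends at 53600000 and thus stops 396 bp before the TSS of Smc3. This distance is far below the 25 kb of an anchor, so whether the loop reaches Smc3 is not resolved. This loop held 33 ATAC-seq peaks and 2 ZBTB21 peaks, with 4 ATAC-seq peaks in the far anchor and 0 in the anchor next to Smc3. The next nearest were a less-responsive loop 77 kb beyond Wapl and a responsive loop 91.5 kb beyond Stag1.

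Other genes of the same machinery were counted in 5 groups, 32 genes in all, of which 15 had a peak within 1 kb of a TSS, 18 within 5 kb and 23 in the span or within 5 kb. The shares over all protein-coding genes were 28.5%, 39.3% and 55.9%. Among the meiotic cohesin genes, 1 of 4 had a promoter peak, Rec8, the meiotic kleisin (score 793), while Rad21l and Smc1b had none. Of the genes that establish or remove cohesion, 5 of 9 had one, from Chtf18, of the clamp loader that acts in cohesion (score 907), to Cdca5, which encodes sororin (674). Dscc1 and Esco1 had none. The architecture factors counted were the 5 that the study names as found with cohesin by mass spectrometry in mESCs. Of these, 3 of 5 had one, with Zfp143 at 936 and Yy1 at 585. Neither Adnp nor Ctcf, the boundary factor that stops cohesin, had one. The condensin genes, whose products compact mitotic chromosomes, had 4 of 8, with Ncapd3 at 815 and Ncaph2 at 689, and none for Ncapd2 and Ncapg2. Of the SMC5/6 genes, which act in DNA repair, 2 of 6 had one, Nsmce1 (875) and Smc6 (839), while Nsmce2 and Nsmce3 had none. These counts are descriptions, and their differences were not tested.

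**Figure D4:**
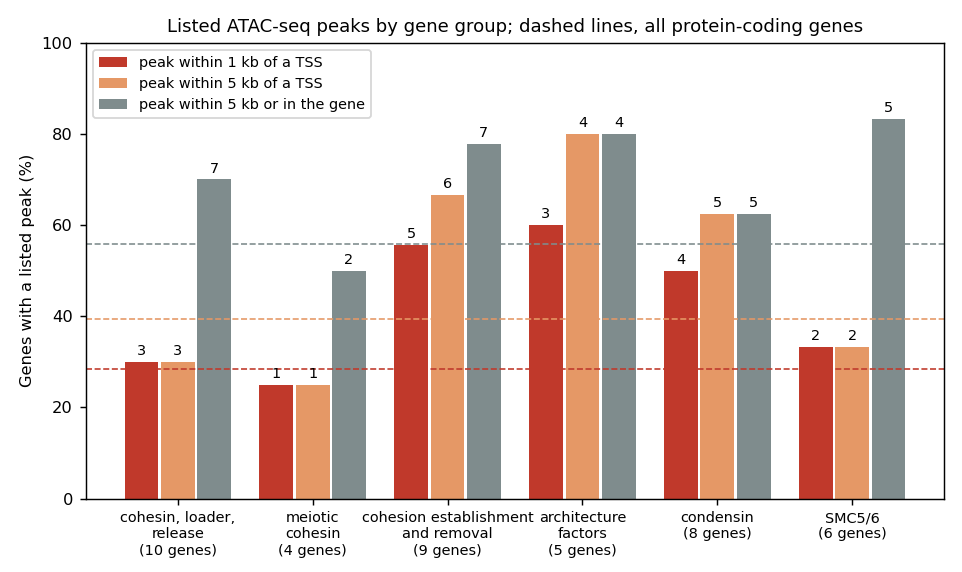
Percentage of genes with a listed ATAC-seq peak in the cohesin group and 5 related groups, with the number of genes above each bar. Red bars count peaks within 1 kb of a TSS, orange bars within 5 kb, and grey bars within 5 kb or in the gene. The dashed lines are the same percentages over all protein-coding genes, 28.5 for 1 kb, 39.3 for 5 kb and 55.9 for 5 kb or in the gene, and the bars of the cohesin group are at 3, 3 and 7 of 10 genes.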

How the data were processed

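ATAC-seq of untreated mESCs (2 replicates) was taken from 1 list of peaks. The authors deposited for each peak mm10 coordinates and a score, with no value per replicate and no depth. The submitters' processing notes name cutadapt 2.6, Bowtie2 2.3.5.1 and MACS2 2.1.1 without a role for this list, and whether Tn5 cut sites were shifted is not given in the sources used here. For ChIP-seq the study filtered replicates at an IDR of 0.05 and removed blacklisted regions. If the ATAC-seq list was made so, peaks found in 1 replicate only are missing from it.

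The 10 genes, the related groups and the alternatives were chosen with earlier results of these data known. TSSs were those of curated RefSeq transcripts (GRCm38.p6, 26242 TSSs of protein-coding genes). A peak was counted at a gene when it overlapped, by at least 1 bp, a window around a TSS or the gene span. All 10 genes are named, and the related genes by the highest-scored and the lowest-scored promoter peak of a group and up to 2 genes without one, in alphabetical order. ZBTB21 peaks in mESCs and loops were the study's lists. Counts over all protein-coding genes serve as background, and no test was made. Overlap and motif search were tested on simulated data (0 of 10000 and 0 of 1200 wrong). Python 3.11.15, numpy 2.4.6 and matplotlib 3.10.9 were used.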

Additional observations from a re-analysis of the deposited data

How the results depend on the processing

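The 8 results were recomputed 27 times with 1 choice changed. In 21 of these the count stayed within 1.5 times the main one, or the median was the same, and in 6 it moved. Within 5 kb of a TSS, 5 cohesin genes in place of 3 had a peak when the TSS was taken at the end of the gene that lies farthest 5', and also 5 with predicted RefSeq transcripts included. The genes gained were Stag1 and Nipbl, whose spans start at predicted transcripts. Only peaks above the median score left 5 of the 14 peaks in the gene spans, and moved the median score of the promoter peaks from 731 to 814 and their median width from 911 to 1055 bp, since the peak of Pds5b is dropped. With gene spans widened by 5 kb, 1 gene (Smc3) in place of 0 lay in a ZBTB21-responsive loop. Genes with a peak within 1 kb numbered 2 to 4 under each alternative. Predicted and GENCODE TSSs and the wider spans for loops were chosen after seeing the data. No paired analysis was possible because the list pools both untreated replicates, and no replicate could be left out. Without depth or values per replicate, a promoter that lacks a listed peak cannot be told apart from one whose peak missed the threshold.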

Other observations

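A ZBTB21 peak overlapped a listed ATAC-seq peak of 3 of the 32 related genes, Cdca5, Yy1 and Ncaph2, and of 3.93% of all protein-coding genes. ZBTB21-responsive loops overlapped 3 of the 32 as well, Chtf18, Smc5 and Nsmce3, and less-responsive loops 0, while they overlapped 16.2% and 6.25% of all protein-coding genes. The other SMC genes, which encode the ATPase arms of condensin and SMC5/6, were mixed. Smc2 had a promoter peak (784 bp, score 725), and the nearest peak to a TSS of its partner Smc4 was 28.2 kb away. Smc6 had one (1081 bp, score 839), and the nearest peak to a TSS of its partner Smc5 was 51.9 kb away. The genes in this paragraph were chosen after their values were seen.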
